A study of Rattus norvegicus with 9 samples.

Results

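The genes described here mainly encode proteins of the postsynaptic density of excitatory synapses and adhesion and secreted molecules that organise synapses. Among them are also the inhibitory scaffold Gphn, the vesicle-priming factor Cadps and the nuclear kinase Camk4. The list held 42 genes, grouped by function, and a gene entered through the array probe set annotated to its symbol alone (the brighter one where a gene had more than 1). Of the 42 genes 40 had such a probe set, out of 14506 genes represented this way on the array, and Lrrtm1 and Adam22 were not analysed here. The genes fell into 6 roles, namely scaffolds, neurexins and neuroligins, secreted C1q family proteins, leucine-rich repeat organizers, calcium and calmodulin signalling, and actin regulators with membrane proteins.

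Transcripts were measured in prefrontal cortex (PFC), hippocampus (HC) and whole blood of the same male, untreated Wistar rats, numbered 2, 5 and 7, with 1 array for each tissue of each rat and 9 arrays in all. Blood was drawn into RNA-stabilising PAXgene tubes, and both brain regions were punched out of frozen coronal sections, so that each brain sample is a mixture of neurons, glia, vessels and residual blood. In such bulk samples fewer cells of a type and less RNA per cell cannot be told apart. The sample labels give no age, and the sources differ on how many animals were killed for the study.

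At an excitatory synapse, receptors for glutamate are held opposite the release site by a layered protein mesh, the postsynaptic density, in which membrane-associated guanylate kinases bind receptors, Dlgap proteins link these to Shank proteins, and Shank proteins reach the actin cytoskeleton of the spine. Neurexins on the presynaptic membrane bind neuroligins, leucine-rich repeat proteins and secreted cerebellins across the cleft, and these contacts set where synapses form and which type they become. Calcium entering through the receptors binds calmodulin and activates CaM kinase II, an abundant enzyme of the density.

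Values are log2 units after robust multi-array averaging (RMA), in which a difference of 1 is a doubling. A gene was called present in a tissue where its mean exceeded 6.2, the intensity cut-off of the study, whose rule also asked for a detection p-value that was not used here, and 16884 probe sets present in at least 1 tissue were tested with limma. Over all 29214 probe sets with values, arrays of 1 brain region correlated at a Spearman rho of 0.995 to 0.996 and blood arrays at 0.957 to 0.968. Blood was also the most variable tissue for the synaptic genes, with a median SD over 3 rats of 0.215 against 0.0655 in HC and 0.0531 in PFC. Olfactory, vomeronasal and taste receptor probe sets, 1298 in number, gave a level for probe sets with little expected signal, and their 95th percentile amounted to 5.53 for blood, 4.88 for HC and 4.85 for PFC. For blood against brain the tissue labels matched the markers. The mean of 7 erythroid genes was 11.42 to 11.61 on blood arrays, 5.30 to 5.50 in HC and 5.68 to 5.89 in PFC. That of 10 neuronal genes was 5.24 to 5.39 in blood, 10.79 to 10.86 in HC and 10.99 to 11.08 in PFC. All 7 were called lower and all 10 higher in brain, but most entered the test through the tissue where they are high. These lists were not used to tell HC from PFC.

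Both brain regions expressed nearly all synaptic genes, and blood expressed fewer. Of the 40 genes 38 were present in HC (95%), 38 in PFC (95%) and 18 in blood (45%), against 58%, 58.2% and 55.3% of all 14506 genes. At a cut-off of 7.2 the count in blood was 7 (17.5%, against 32.2%). The 18 blood-expressed genes passed the cut-off in every tissue, and 19 genes were absent from blood but present in both brain regions. C1ql2 passed the cut-off in HC alone and Cbln4 in PFC alone, whereas Cbln1, the cerebellin of cerebellar granule cells, passed it in no tissue. In blood 14 of the 40 genes lay no higher than the chemosensory limit, so that their differences from brain were also computed with blood raised to that limit, as lower bounds, which ran from 0.68 for Cbln4 to 7.14 for Gpm6a.

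**Figure D1:**
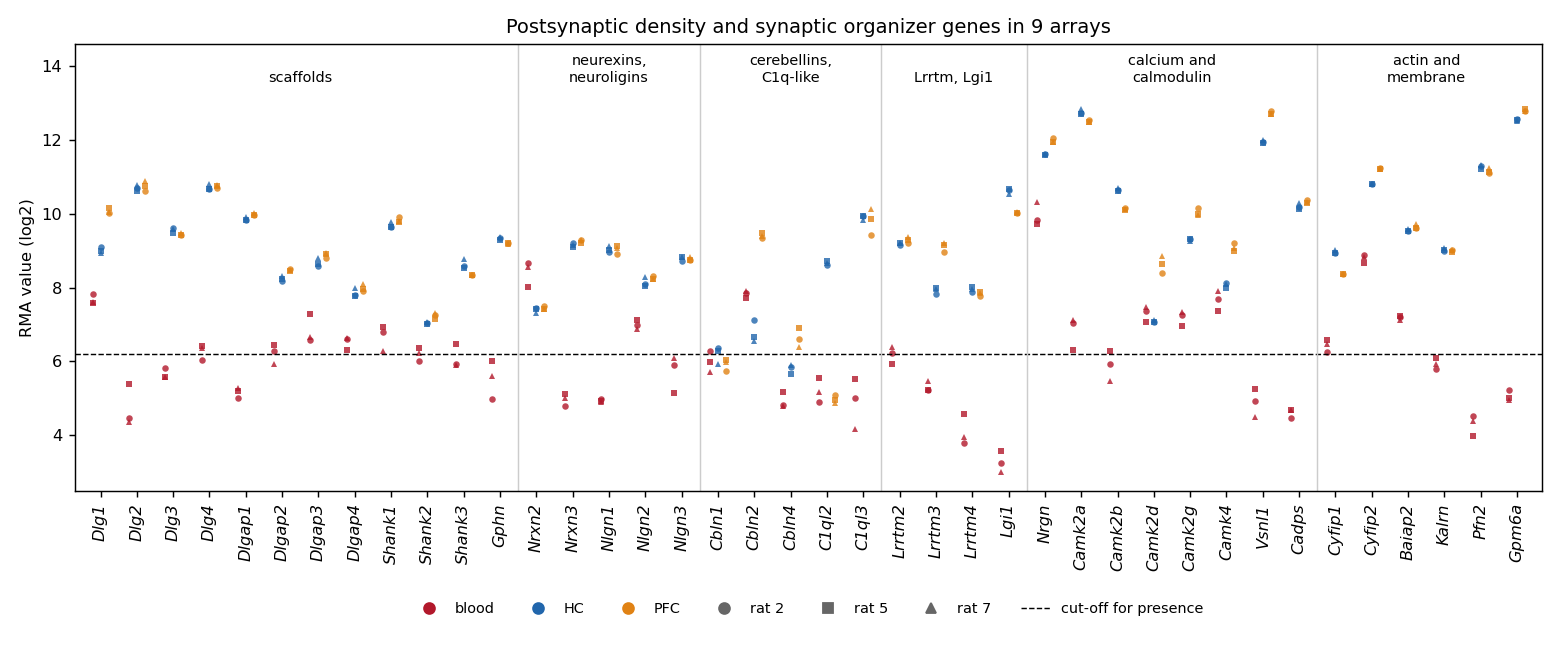
RMA values (log2) of the 40 synaptic genes on the 9 arrays, with 1 point per array and genes grouped by role; the dashed line is the cut-off for presence at 6.2. Blood values lie mainly below the brain values, and 18 genes exceed the cut-off in blood.

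Compared with blood, brain (the mean of HC and PFC) had higher levels of 37 of the 39 tested genes, while Cbln2 did not pass the test. The remaining gene, Nrxn2, was lower on the probe set used (-1) and higher on its other, almost equally bright probe set (1.95), which leaves 0 genes lower. The shares were 94.9% higher and, with the probe set used for Nrxn2, 2.56% lower, against 48.8% higher and 37.4% lower among all tested probe sets. The median difference was 3.07 for the synaptic genes and 0.22 for all tested probe sets. The 6 brain arrays lay wholly above the 3 blood arrays for 35 genes (89.7%, against 44.8% of all tested) and wholly below them for 1 gene, again Nrxn2 on the probe set used (2.56%, against 34.7%). The 19 genes absent from blood but present in both regions, with C1ql2 and Cbln4, entered the test through brain alone. That filter favours a higher call for them, so these shares and the median are not independent of it. Of the 18 genes present in every tissue, all except Nrxn2 and Cbln2 were higher in brain. The genes that differed by 5 or more were the 7 genes Gpm6a, Vsnl1, Lgi1, Pfn2, Dlg2, Camk2a and Cadps. Quantile normalisation fixes the overall distribution of each array, and with arrays centred instead on a panel of 19 housekeeping genes the split over all probe sets changed from 8232 higher and 6319 lower to 3400 higher and 11179 lower. The synaptic genes then had a median of 1.95, with 31 higher and 3 lower in brain, namely Cbln2, Camk2d and Nrxn2 on the probe set used. The panel itself was not even between the tissues. On the deposited scale 14 of its 19 genes were higher and 3 lower in brain (median 1.13), from B2m at -2.15 to Sdha at 2.26. Values on the housekeeping scale are therefore an alternative and not a reference.

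**Figure D2:**
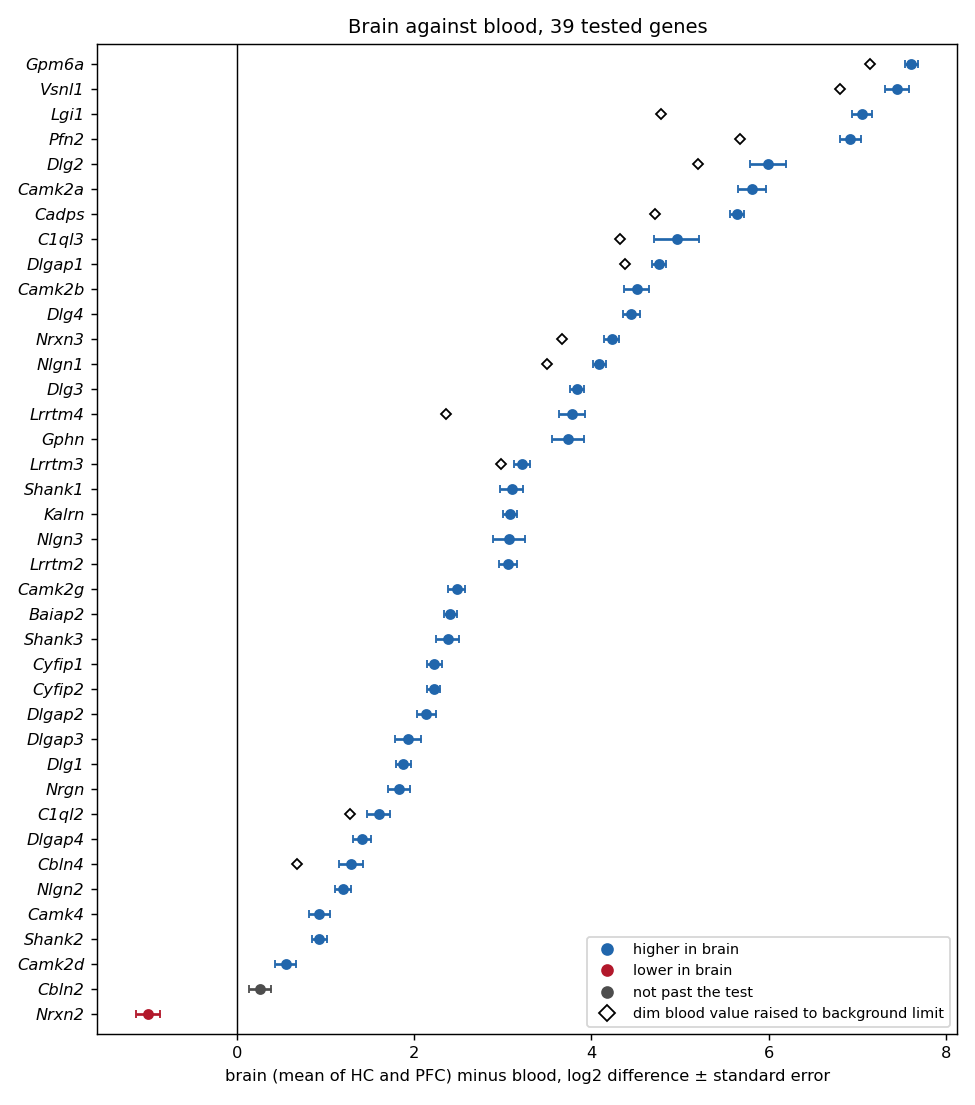
Difference between brain and blood (log2, limma estimate with standard error) for the 39 tested synaptic genes, in order of size, with open diamonds where dim blood values were raised to the chemosensory limit. Gpm6a lies highest at 7.61, and the probe set used for Nrxn2 lies lowest at -1, whereas the other probe set of that gene, not drawn, gave 1.95.

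Between the brain regions 12 of the 39 synaptic genes passed the test. HC exceeded PFC for 3 of 39 genes, C1ql2, Lgi1 and Cyfip1, and was below it for 9, Dlg1, Cbln2, Cbln4, Lrrtm3, Camk2d, Camk2g, Camk4, Vsnl1 and Cyfip2. These shares were 7.69% and 23.1%, against 4.51% higher and 4.66% lower among all tested probe sets, and 27 genes did not pass the test. The difference was under 0.3 in either direction for 25 genes (64.1%, against 82.1% of all tested) and at least 1 for 6 genes (15.4%, against 2.55%). The median difference was -0.11, against 0 for all tested probe sets. HC arrays lay wholly above PFC arrays for 9 genes (23.1%, against 20.9%) and wholly below for 17 genes (43.6%, against 21% of all tested). The sign of the difference was the same in all 3 rats for 31 genes (79.5%, against 56.7% of all tested). The HC array of rat 7 was the one farthest from the HC median for 24 of the 39 genes (61.5%, against 38.4% of all tested), and without rat 7 the counts were 1 higher and 8 lower in HC.

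The spread in this test came from all 9 arrays, including blood. Fitted to the 6 brain arrays alone, HC exceeded PFC for 6 genes (15.4%) and was below it for 13 (33.3%), against 12.7% and 13.1% of all tested probe sets. Shank3, Camk2a and Camk2b joined the genes higher in HC, and Dlgap2, Shank2, Nrgn and Gpm6a those lower. With the rat as a block in that fit Dlgap3 was also lower in HC (adjusted p = 0.0448).

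Cell type and regional markers moved between the regions as well. Of 8 oligodendrocyte genes 7 were higher in HC, and their mean ranged over arrays from 9.80 to 10.17 in HC and from 8.89 to 9.44 in PFC. Of 10 neuronal genes 1, Tubb3, was lower in HC and the others did not pass the test, and their mean ranged from 10.79 to 10.86 in HC and from 10.99 to 11.08 in PFC. Of 8 astrocyte genes 1, Gfap, was higher in HC by 1.55, with list means of 10.57 to 10.62 in HC and 10.18 to 10.21 in PFC. Some markers of structures within or next to HC stood higher there. These were 5 of 7 hippocampal pyramidal genes (list means of 7.72 to 7.98 against 6.92 to 7.05), the dentate gyrus gene Prox1 by 3.09 (1 of 4), and the choroid plexus gene Ttr by 6.07 (1 of 2). The other dentate gyrus genes did not pass the test, with Calb1 at -0.48, Pdzd2 at -0.32 and Trpc6 at 0.40. The striatal gene Penk at -0.93 (1 of 5) and the thalamic and habenular gene Ramp3 at -1.04 (1 of 4) were lower in HC. Of 7 erythroid genes 2 were lower in HC, Hbb at -0.97 and Alas2 at -0.66, with list means of 5.30 to 5.50 in HC and 5.68 to 5.89 in PFC. Their part in the differences of the synaptic genes was not tested.

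**Figure D3:**
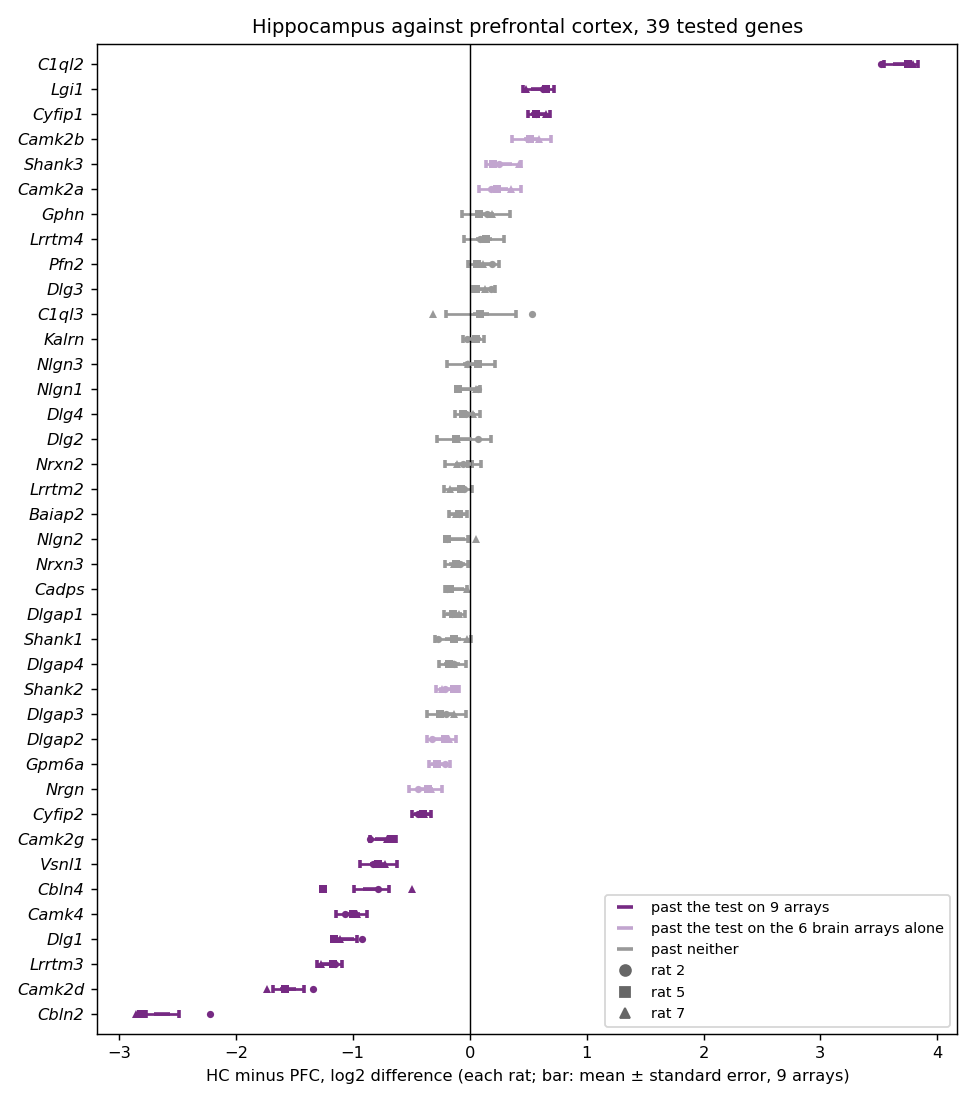
Difference between HC and PFC (log2, limma estimate with standard error) for the 39 tested synaptic genes, in order of size, with a point for each rat and colours for genes past the test on 9 arrays, on the 6 brain arrays alone, or on neither. C1ql2 stands at 3.69 and Cbln2 at -2.63, while 25 of the 39 genes lie within 0.3 of 0.

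All 12 scaffold genes were higher in brain than in blood, with a median difference of 2.74. Of the 12 genes 7 were present in blood, and the others entered the test through brain alone. Between the regions 1 of the 12, Dlg1, passed the test on 9 arrays. On the 6 brain arrays alone Dlgap2 (adjusted p = 0.0115), Shank2 (adjusted p = 0.0368) and Shank3 also passed it. Dlg1 (SAP97), which takes part in trafficking of AMPA receptors, measured 7.82, 7.58 and 7.60 in blood of rats 2, 5 and 7. It measured 9.10, 8.99 and 8.94 in HC and 10.02, 10.15 and 10.06 in PFC. The 3 tissues did not overlap, and every PFC array was about 1 unit above its HC counterpart. HC minus PFC was -1.06 ± 0.0948 (SE, adjusted p = 9e-05), and brain exceeded blood by 1.88 ± 0.0821 (adjusted p = 9.92e-09).

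For the other membrane-associated guanylate kinases the regional difference did not pass the test. Dlg4 (PSD-95), the main scaffold of the density, measured 6.03, 6.42 and 6.36 in blood, 10.66, 10.67 and 10.80 in HC, and 10.70, 10.74 and 10.77 in PFC. Its regions overlapped and differed by -0.02, while brain exceeded blood by 4.45 ± 0.0947 (adjusted p = 8.91e-11). Dlg2 (PSD-93) had the widest scaffold difference from blood, 5.99 ± 0.201, or 5.20 with blood raised to the limit, and Dlg3 (SAP102) exceeded blood by 3.84. Their HC minus PFC differences were -0.05 and 0.12. A test of Dlg1 against its relatives was not run.

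Among the Dlgap proteins, which bridge Dlg and Shank proteins, brain exceeded blood by 4.76 for Dlgap1, 2.14 for Dlgap2, 1.93 for Dlgap3 and 1.41 for Dlgap4. Dlgap1 was not present in blood, whereas the other 3 were, and the Dlgap1 difference was 4.38 with blood raised to the limit. Shank1 showed 6.80, 6.93 and 6.27 in blood against 9.65 to 9.79 in HC and 9.78 to 9.92 in PFC, a difference of 3.10 ± 0.133. Shank3 exceeded blood by 2.38 and Shank2 by 0.93 ± 0.0868, the narrowest scaffold difference, and on the housekeeping scale Shank2 stood at -0.19 (adjusted p = 0.0667) and Dlgap4 at 0.28 (adjusted p = 0.0654). Shank3 was 8.58, 8.53 and 8.77 in HC and 8.33, 8.33 and 8.35 in PFC, so that all HC arrays were above all PFC arrays. That difference of 0.29 ± 0.148 did not pass the test on 9 arrays (adjusted p = 0.354) and passed it on the 6 brain arrays (adjusted p = 0.0207). Gphn (gephyrin), the scaffold of inhibitory synapses, exceeded blood by 3.74 ± 0.18 and differed by 0.14 between regions.

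Of the neurexins and neuroligins, Nrxn3, Nlgn1, Nlgn2 and Nlgn3 were higher in brain, and for none of the 5 tested genes did the regional difference pass the test. Nrxn3 nevertheless measured 9.21, 9.09 and 9.14 in HC, wholly below its 9.29, 9.22 and 9.28 in PFC (-0.11, adjusted p = 0.663). Brain exceeded blood by 4.23 ± 0.084 for Nrxn3 and by 4.09 ± 0.0771 for Nlgn1, a neuroligin of excitatory synapses, and these were 3.67 and 3.50 with blood raised to the limit. Nlgn3 exceeded blood by 3.07 ± 0.18. Nlgn2, the neuroligin of inhibitory synapses, was present in blood and exceeded it by 1.20 ± 0.0866, which became 0.08 (adjusted p = 0.488) on the housekeeping scale.

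Nrxn2 gave opposite answers on its 2 probe sets. The brighter one (10728179) measured 8.67, 8.02 and 8.56 in blood, 7.45, 7.43 and 7.30 in HC, and 7.51, 7.43 and 7.41 in PFC. All blood arrays were above all brain arrays, and brain minus blood was -1 ± 0.132 (adjusted p = 4.77e-05). The other (10713419) measured 6.19, 6.58 and 6.55 in blood, 8.21, 8.10 and 8.20 in HC, and 8.48, 8.56 and 8.78 in PFC. Here every brain array was above every blood array, and brain exceeded blood by 1.95 ± 0.109 (adjusted p = 6.14e-08). Over the 9 arrays the probe sets averaged 7.75 and 7.74, so the rule that chose the brighter one decided the sign by a narrow margin. No direction can be given for the gene, and which transcripts each probe set reads was not analysed here.

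The secreted C1q family held the widest regional differences. C1ql2, a ligand released by mossy fibres of the dentate gyrus, measured 8.60, 8.72 and 8.67 in HC and 5.08, 4.96 and 4.88 in PFC. Blood gave 4.91, 5.56 and 5.17. HC stood alone, and PFC overlapped with blood. HC minus PFC was 3.69 ± 0.147 (adjusted p = 1.74e-06), a 12.9-fold difference, and in the single rats it was 3.52, 3.75 and 3.79. HC exceeded blood by 3.45 ± 0.147 (adjusted p = 1.13e-08), while PFC minus blood was -0.24 ± 0.147 (adjusted p = 0.152).

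Cbln2, a cerebellin that joins neurexins to postsynaptic receptors, ran the other way. It measured 7.13, 6.67 and 6.55 in HC, 9.35, 9.49 and 9.40 in PFC, and 7.86, 7.73 and 7.92 in blood. The 3 tissues did not overlap, with blood between the regions. HC minus PFC was -2.63 ± 0.142 (adjusted p = 5.54e-06), a 6.18-fold difference that measured -2.22, -2.81 and -2.85 in the single rats. Against blood, HC stood at -1.05 ± 0.142 (adjusted p = 6.01e-05) and PFC at 1.58 ± 0.142 (adjusted p = 2.79e-06), so that the brain mean of 0.26 ± 0.123 did not pass the test (adjusted p = 0.0669). On the housekeeping scale that mean was -0.86 (adjusted p = 0.000248).

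Cbln4 was dimmer and leaned the same way as Cbln2, at 5.84, 5.66 and 5.89 in HC and 6.62, 6.91 and 6.38 in PFC. Its HC and PFC arrays did not overlap, and HC minus PFC was -0.84 ± 0.152 (adjusted p = 0.007). The call was lost without rat 2. Against blood, at 4.82, 5.17 and 4.78, the brain mean of Cbln4 was higher by 1.29 ± 0.132 (adjusted p = 6.47e-06), by 0.68 with blood raised to the limit and by 0.17 (adjusted p = 0.255) on the housekeeping scale. C1ql3 was high in both regions, at 9.95, 9.94 and 9.83 in HC and 9.42, 9.85 and 10.14 in PFC. Brain exceeded its blood values of 5.00, 5.51 and 4.17 by 4.96 ± 0.259, or 4.32 with blood raised to the limit. Its regions overlapped, and its PFC arrays had the highest SD of any synaptic gene in that tissue, 0.364. Cbln1 measured 6.28, 5.98 and 5.72 in blood, 6.36, 6.27 and 5.93 in HC, and 5.75, 6.05 and 5.98 in PFC, and was too dim in every tissue to be tested.

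**Figure D4:**
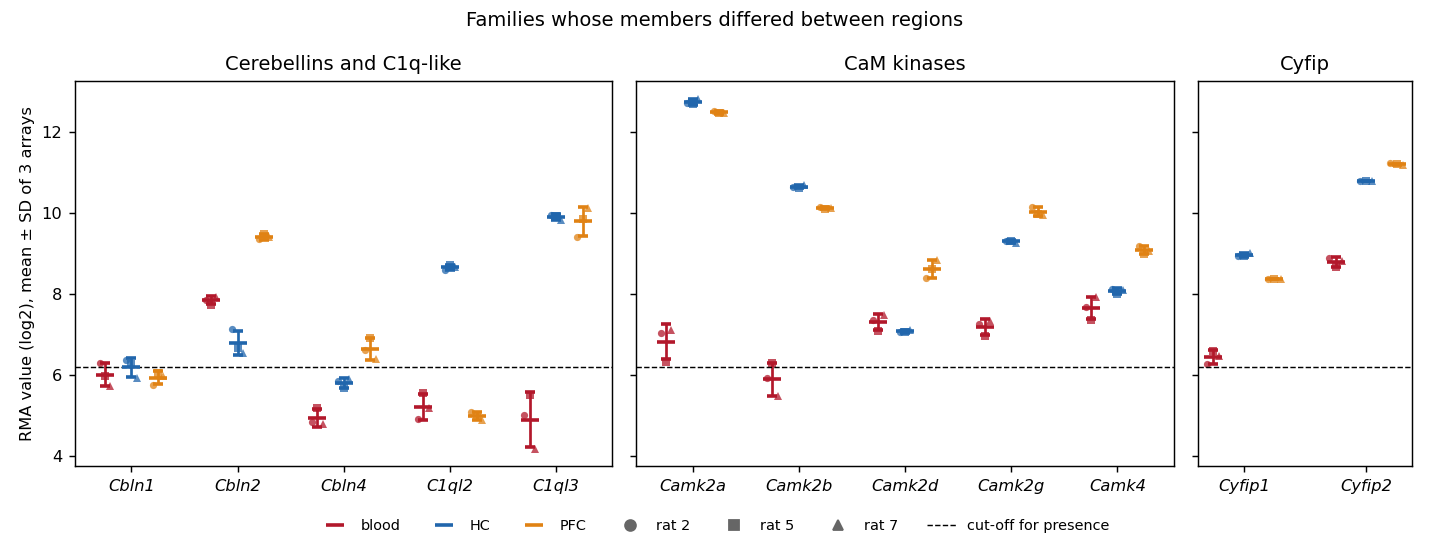
RMA values (log2) of the secreted C1q family, the CaM kinases and the Cyfip genes on the 9 arrays, with bars for the mean ± SD of 3 rats per tissue and the cut-off for presence as a dashed line. C1ql2 is high in HC alone, Cbln2 is highest in PFC, and Camk2a and Camk2d have opposite regional order, although that of Camk2a did not pass the test on 9 arrays.

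Promoters are shown for C1ql2 and Cbln2, the genes with the widest regional differences, and below for the 4 CaM kinase II genes. Each is the RefSeq sequence (GRCr8) over 300 bases that run from upstream of the gene start to just past it, 5′ to 3′ on the gene strand, and capitals mark the GC box GGGCGG on either strand, the Sp1-type motif of many broadly active promoters. C1ql2 lies at chr13:34023652-34023951 on the plus strand and held 0 GC boxes. Cbln2 lies at chr18:82215953-82216252 on the plus strand and held 2.
C1ql2: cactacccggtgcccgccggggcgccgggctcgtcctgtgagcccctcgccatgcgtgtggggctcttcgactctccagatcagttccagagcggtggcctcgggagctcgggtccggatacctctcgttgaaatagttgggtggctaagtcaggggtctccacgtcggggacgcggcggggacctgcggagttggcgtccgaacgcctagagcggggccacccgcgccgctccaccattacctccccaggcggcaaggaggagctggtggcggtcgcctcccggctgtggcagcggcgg
Cbln2: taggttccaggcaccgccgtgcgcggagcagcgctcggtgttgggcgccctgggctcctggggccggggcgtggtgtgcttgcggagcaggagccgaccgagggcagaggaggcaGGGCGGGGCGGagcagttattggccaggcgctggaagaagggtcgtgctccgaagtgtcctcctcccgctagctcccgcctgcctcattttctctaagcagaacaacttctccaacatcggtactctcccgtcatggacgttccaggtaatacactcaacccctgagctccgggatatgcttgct

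All 4 tested leucine-rich repeat organizers were higher in brain than in blood, with a median difference of 3.50. None was present in blood, so all 4 entered the test through brain alone, a filter that favours a higher call. Among all tested probe sets 48.8% were higher in brain. Lgi1, a secreted protein that bridges pre- and postsynaptic ADAM proteins and is known as an epilepsy gene, measured 3.24, 3.57 and 2.99 in blood, 10.64, 10.66 and 10.54 in HC, and 10.01, 10.01 and 10.06 in PFC. No tissue overlapped with another. Brain exceeded blood by 7.05 ± 0.114 (adjusted p = 2.19e-11), or 4.79 with blood raised to the limit. HC exceeded PFC by 0.59 ± 0.132 (adjusted p = 0.0212), a call that was lost when any single brain array or any rat was left out.

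Lrrtm3, a postsynaptic neurexin ligand, measured 7.82, 7.98 and 7.95 in HC and 8.97, 9.15 and 9.21 in PFC, against 5.22, 5.22 and 5.46 in blood. PFC was above HC in every rat, with HC minus PFC of -1.20 ± 0.105 (adjusted p = 8.1e-05), a 2.29-fold difference. Lrrtm2 exceeded blood by 3.06, and Lrrtm4, at background in blood, by at least 2.36 with blood raised to the limit (3.78 as measured). They had HC minus PFC differences of -0.10 and 0.12, neither past the test.

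The 8 calcium and calmodulin genes were all higher in brain, with a median difference of 3.50, and 4 of them were lower in HC than in PFC. Of the 8 genes 5 were present in blood, and the others entered the test through brain alone. Camk2a, the alpha subunit of CaM kinase II in forebrain excitatory neurons, measured 7.04, 6.32 and 7.11 in blood, 12.72, 12.71 and 12.84 in HC, and 12.54, 12.48 and 12.49 in PFC. Brain exceeded blood by 5.81 ± 0.157 (adjusted p = 3.81e-10). Every HC array was above every PFC array. The difference of 0.26 ± 0.181 did not pass the test on 9 arrays (adjusted p = 0.568) and passed it on the 6 brain arrays (adjusted p = 0.0127). It also passed without the blood array of rat 5 (adjusted p = 0.0263).

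Camk2b, the actin-binding beta subunit, measured 10.65, 10.63 and 10.71 in HC and 10.15, 10.11 and 10.12 in PFC. HC was higher in all rats, by 0.53 ± 0.168, and again the test was passed on 6 arrays (adjusted p = 0.000251) but not on 9 (adjusted p = 0.0907).

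The delta and gamma subunits, which many tissues outside the brain also make, had the opposite order. Camk2d measured 7.06, 7.06 and 7.12 in HC, 8.40, 8.63 and 8.85 in PFC, and 7.36, 7.08 and 7.48 in blood. PFC stood above both other tissues. HC minus PFC was -1.55 ± 0.134 (adjusted p = 7.68e-05), a 2.92-fold difference found in each rat at -1.34, -1.58 and -1.73. HC minus blood was -0.23 ± 0.134 (adjusted p = 0.137), and PFC exceeded blood by 1.32 ± 0.134 (adjusted p = 7.33e-06). The brain mean exceeded blood by 0.55 ± 0.116 (adjusted p = 0.00137), and on the housekeeping scale it was -0.58 (adjusted p = 0.00255), so that its direction against blood depends on the scaling.

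Camk2g measured 9.31, 9.31 and 9.26 in HC and 10.16, 9.99 and 9.96 in PFC, with HC minus PFC of -0.74 ± 0.112 (adjusted p = 0.00238). Its regions did not overlap. Camk4, a nuclear kinase that phosphorylates CREB and is also known from T cells, measured 7.68, 7.36 and 7.92 in blood, 8.13, 7.99 and 8.11 in HC, and 9.20, 9 and 9.07 in PFC. The tissues again did not overlap, and HC minus PFC was -1.01 ± 0.135 (adjusted p = 0.0011). Blood was exceeded by 0.93 ± 0.117 (adjusted p = 3.08e-05), which turned to -0.19 (adjusted p = 0.253) on the housekeeping scale. The regional calls of Camk2g and Camk4 were lost without rat 2.

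The promoters of the CaM kinase II genes are printed because their measured regional order differed by subunit, and they are marked as above. The regional differences of Camk2a and Camk2b did not pass the test on 9 arrays. Camk2a (chr18:56648930-56649229, plus strand) held 0 GC boxes and Camk2b (chr14:85147895-85148194, minus strand) held 6. Camk2d (chr2:217698301-217698600, plus strand) held 3 and Camk2g (chr15:3553106-3553405, plus strand) held 9.
Camk2a: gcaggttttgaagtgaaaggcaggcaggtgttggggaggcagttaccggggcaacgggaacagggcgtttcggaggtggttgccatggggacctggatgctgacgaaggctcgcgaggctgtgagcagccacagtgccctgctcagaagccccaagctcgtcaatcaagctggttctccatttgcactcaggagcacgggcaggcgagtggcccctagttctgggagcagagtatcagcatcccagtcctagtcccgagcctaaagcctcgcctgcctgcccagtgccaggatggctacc
Camk2b: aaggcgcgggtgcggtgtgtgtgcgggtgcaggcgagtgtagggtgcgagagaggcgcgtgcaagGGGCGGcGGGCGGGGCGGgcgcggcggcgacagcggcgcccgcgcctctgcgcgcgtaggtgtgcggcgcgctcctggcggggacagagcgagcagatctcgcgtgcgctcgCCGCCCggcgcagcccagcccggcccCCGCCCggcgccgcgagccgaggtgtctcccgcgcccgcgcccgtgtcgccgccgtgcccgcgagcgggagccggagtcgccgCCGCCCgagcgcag
Camk2d: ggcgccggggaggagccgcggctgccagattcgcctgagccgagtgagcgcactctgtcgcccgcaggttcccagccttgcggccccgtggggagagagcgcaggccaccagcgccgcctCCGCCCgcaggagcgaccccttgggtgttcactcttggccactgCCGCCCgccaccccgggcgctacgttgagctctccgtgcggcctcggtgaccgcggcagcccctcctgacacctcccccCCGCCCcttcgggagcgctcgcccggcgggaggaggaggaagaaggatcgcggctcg
Camk2g: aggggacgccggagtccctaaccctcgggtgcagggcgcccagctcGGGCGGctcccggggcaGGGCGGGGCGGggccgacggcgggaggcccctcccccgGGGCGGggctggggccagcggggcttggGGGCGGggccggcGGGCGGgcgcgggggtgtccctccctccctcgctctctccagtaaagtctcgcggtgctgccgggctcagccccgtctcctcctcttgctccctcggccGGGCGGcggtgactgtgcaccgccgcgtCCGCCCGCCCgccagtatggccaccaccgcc

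Vsnl1 (visinin-like 1), a neuronal calcium sensor, measured 4.93, 5.24 and 4.50 in blood, 11.94, 11.91 and 11.99 in HC, and 12.78, 12.69 and 12.71 in PFC. The brain mean was above blood by 7.45 ± 0.136 (adjusted p = 4.06e-11), or 6.80 with blood raised to the limit. The regions did not overlap and HC minus PFC was -0.78 ± 0.157 (adjusted p = 0.0122), a call lost without rat 2, without rat 5, or without the HC array of either or the PFC array of rat 2. Nrgn (neurogranin), which binds calmodulin in spines, was present in blood at 9.84, 9.73 and 10.33, against 11.59 to 11.62 in HC and 11.95 to 12.06 in PFC. Brain exceeded blood by 1.83 ± 0.121 (adjusted p = 2.26e-07), and HC minus PFC of -0.38 ± 0.14 passed the test on 6 arrays (adjusted p = 0.00175) but not on 9 (adjusted p = 0.162). Cadps, which primes dense-core vesicles for release, exceeded blood by 5.64 ± 0.0811, or 4.72 with blood raised to the limit, and differed by -0.12 between regions.

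All 6 actin regulators and membrane proteins were higher in brain than in blood. Of the 6 genes 3 were present in blood, and the others entered the test through brain alone. Cyfip1 and Cyfip2, alternative subunits of the WAVE complex that drives actin branching and partners of the fragile X protein, had opposite regional order. Cyfip1 measured 6.26, 6.59 and 6.47 in blood, 8.94, 8.94 and 9.02 in HC, and 8.37 on each of the 3 PFC arrays. HC was higher in each rat, by 0.59 ± 0.095 (adjusted p = 0.00336), and the call was lost without rat 7 (adjusted p = 0.0985). Cyfip2 measured 8.88, 8.66 and 8.82 in blood, 10.80 on every HC array, and 11.24, 11.21 and 11.20 in PFC. Here PFC was higher in each rat, with HC minus PFC of -0.41 ± 0.0831 (adjusted p = 0.0119), and the call was lost without any single brain array or rat, and on the housekeeping scale at -0.37 (adjusted p = 0.172). Both exceeded blood, by 2.23 and 2.22.

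Gpm6a, a neuronal membrane glycoprotein that promotes filopodia, had the widest difference from blood of all 39 genes. It measured 5.23, 5.01 and 4.96 in blood, 12.58, 12.55 and 12.51 in HC, and 12.79, 12.83 and 12.79 in PFC. The difference between brain and blood was 7.61 ± 0.0777 (adjusted p = 7.33e-12), or 7.14 with blood raised to the limit, and HC minus PFC of -0.26 ± 0.0898 did not pass the test on 9 arrays (adjusted p = 0.134). Pfn2, the neuronal profilin, measured 4.53, 3.97 and 4.39 in blood against 11.21 to 11.33 in HC and 11.10 to 11.23 in PFC, a difference of 6.92 ± 0.117, or 5.68 with blood raised to the limit. Kalrn (kalirin), an exchange factor for Rac in spines, and Baiap2, a membrane-bending adaptor, exceeded blood by 3.08 and 2.41. Their HC minus PFC differences of 0.03 and -0.10 did not pass the test, although for Baiap2 all HC arrays (9.52, 9.52 and 9.59) were below all PFC arrays (9.61, 9.62 and 9.71).

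Other genes of the same pathways were listed by function. Among all tested probe sets 48.8% were higher and 37.4% lower in brain than in blood, with a median of 0.22. Between the regions 4.51% were higher and 4.66% lower in HC. In every list here and below, genes absent from blood entered the test through brain alone, and that filter favours a higher call. In blood 13 of the 25 scaffold and signalling genes were present, and 12 of the 45 adhesion and organizer genes with a probe set. Of 25 further scaffold and signalling genes of the density 23 were higher and 2 lower in brain than in blood (median 2.66), and 3 were higher and 2 lower in HC than in PFC. Sorbs2 and Lin7a were the lower ones in HC, at -1.05 and -1.25. Of 43 further adhesion and organizer genes 39 were higher and 1 lower in brain (median 2.92), with 4 higher in HC, led by Clstn2 at 1.03 and Gpc4 at 0.97, and 6 lower, led by Adgrl2 at -1.16 and Lgi2 at -1.09. Lgi2 thus stood lower in HC, whereas Lgi1 stood higher, by a call that was lost without any single brain array or rat.

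Among 15 further genes of calmodulin, its kinases and other proteins that bind or are regulated by it 14 were higher and 1 lower in brain, and in HC 1 was higher and 3 were lower. Camk2n1, an inhibitor of CaM kinase II, was lower in HC at -1.46, as was the upstream kinase gene Camkk2 at -0.85. Of 9 neuronal calcium sensors 8 were higher in brain, and HC exceeded PFC for Hpca (hippocalcin) by 1.14 and for Kcnip2 by 0.95, but was below it for Kcnip3 at -0.93. Of 15 WAVE and actin genes 11 were higher and 3 lower in brain. The lower ones were Nckap1l, the blood cell subunit of the WAVE complex, at -2.77, Wasf2 at -2.28 and Pfn1, the broadly expressed profilin, at -1.86. Between the regions 3 of the 15 were higher in HC, among them Abi1 at 0.63, and 2 were lower, among them Pak1 at -1.01. All 5 tested genes of the inhibitory postsynapse were higher in brain, and 2 of them, Gabrb2 at -0.89 and Glrb at -0.46, were lower in HC.

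Promoters in the RefSeq table matched 34 of the 42 genes. The GC box GGGCGG occurred in 17 of the 34 (50%), against 33.1% of all 33469 promoters in that table, both strands searched and overlapping matches counted. The 2 sets are not alike, since the listed genes gave 1 promoter each and the whole table can hold several per gene. The median GC content was 62.2% against 51.7%. The cAMP response element TGACGTCA was in 1 promoter (Lrrtm2, 2.94% against 1.83%), the E-box CACGTG in 1 (Dlg1, 2.94% against 6.42%), and the RE1 half-site TTCAGCACC in 0 (against 0.356%). These matches are descriptions of sequence.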

How the data were processed

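Total RNA of blood, HC and PFC from 3 rats was hybridised to Rat Gene 1.0 ST arrays. The authors quantile normalised and RMA transformed the intensities, and deposited 1 log2 value per probe set and array. Quantile normalisation gives all arrays 1 distribution, so differences are relative to it. Probe sets with several symbols were left out. Probe sets with a mean above 6.2 in at least 1 tissue (16884) entered a linear model of the 3 tissues without a block (limma 3.58.1, R 4.3.3) and were called at a Benjamini-Hochberg adjusted p under 0.05. Exact permutation of 3 against 3 arrays cannot go below 0.1. No array depth applies, and 3 arrays per tissue limit the precision. Genes named were all members, and up to 4 per pathway list with a regional difference past the test. For the WAVE and actin list the genes lower in brain than in blood were named as well. Genes with wider differences between brain and blood were not named for that reason. The members and lists were chosen with earlier results of these data known.

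The rat numbers pair the tissues, since the labels give the animal. Deviations of HC and PFC from the tissue means correlated within rats at 0.137 to 0.287, and those with blood at -0.0792 to 0.0518. Alternatives were the rat as a block, other scalings, filters and thresholds, the dimmer probe set, and leaving out arrays or rats. The scripts were tested on simulated data.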

Additional observations from a re-analysis of the deposited data

Results flagged for a closer look

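For 3 genes the measured means of HC and PFC lay on opposite sides of blood while the difference between the regions passed the test. HC minus PFC was 3.69 for C1ql2, -2.63 for Cbln2 and -1.55 for Camk2d. Both comparisons with blood share the blood arrays, and the regional difference does not use them other than in the estimate of the spread. For C1ql2 the side on which PFC lay has no reading, since blood (5.21) was not above its chemosensory limit of 5.53, PFC (4.97) was close to its own limit of 4.85, and their arrays overlapped. For C1ql2 and Camk2d one of the regions did not pass the test against blood.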

How the results depend on the processing

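With the rat as a fixed or random replicate block on 9 arrays the counts stayed at 37 higher and 1 lower in brain, and 3 higher and 9 lower in HC, and no member's call changed. On the 6 brain arrays alone 6 were higher in HC, also 6 with the rat as replicate block, which gave 14 lower. At a log2 difference of at least 1 there were 1 higher and 5 lower in HC and 0 lower in brain. An adjusted p under 0.01 left 2 higher in HC. Leaving out arrays or rats gave 1 (without rat 7) to 6 (without the blood array of rat 5) higher in HC and 4 (without rat 2) to 10 lower. At a cut-off of 7.2, 7 genes were present in blood. The dimmest probe set gave 0 lower in brain, with Nrxn2 at 1.95. Centring on housekeeping genes shifted brain minus blood by -1.12 and gave 3 lower in brain. These were Cbln2 at -0.86, Camk2d at -0.58 and Nrxn2 on the probe set used. Shank2 at -0.19 (adjusted p = 0.0667) and Camk4 at -0.19 (adjusted p = 0.253) changed sign without passing the test. For HC minus PFC, Dlg4 stood at 0.02 on that scale. Without single arrays or rats HC minus PFC ranged from -0.02 to 0.04 for Nlgn3, from -0.11 to 0.31 for C1ql3 and from -0.11 to 0.01 for Dlg2. The regional calls of C1ql2, Cbln2, Camk2d, Dlg1 and Lrrtm3 held under every alternative run. The causes of these changes were not tested.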
